A study of Homo sapiens with 6 samples.

Results

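The tumor necrosis factor (TNF) superfamily was followed in HepG2 cells after knockdown of PAIP1. Its members here are the protein-coding genes of the count table whose symbols begin with TNFSF or TNFRSF and a digit, together with TNF, LTA, LTB, LTBR and TRAF1 to TRAF6. The rule uses names only and found 40 of 30987 genes: 13 ligands, 21 receptors and 6 TRAF adaptors. The family was chosen with earlier results of these data known. HepG2 is an established cell line from a human liver tumor. The cells were transfected either with an siRNA against PAIP1 (siPAIP1; siRNA3 of the study) or with a non-targeting siRNA (Ctrl), all with the same lipid reagent, and were collected 48 h later. Each group had 3 biological replicates, and poly(A) RNA was sequenced. A single cell line and a single siRNA sequence stand behind every comparison, so an effect of lowering PAIP1 and any other effect of that siRNA cannot be told apart.

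Ligands of this family are trimers, anchored in the membrane or shed from it, that cluster receptors on the target cell. Receptors with a death domain can recruit TRADD or FADD and activate caspase-8, whereas the others bind TRAF proteins, which pass the signal to NF-κB and to stress kinases. Decoy receptors bind ligand without passing on a death signal. In liver, TNF receptors govern the balance between survival and death of hepatocytes, and the ligands come largely from immune cells.

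The libraries held 29313211 to 34659866 counted fragments. In PAIP1, the targeted gene on chromosome 5, FPKM was 8.29, 6.54 and 5.47 in siPAIP1 libraries, against 26.83, 22.96 and 26.01 in Ctrl libraries (FPKM, fragments per kilobase of exon scaled to the mapped fragments of the library). The groups were far apart, and the log2 fold change was -1.93 with an SE of 0.13 (edgeR's quasi-likelihood test, adjusted p = 0.00092). The library siPAIP1 replicate 3 stood apart: 357 of 9247 well-counted genes (mean CPM, the scaled share of the library's counts, of 10 or higher) exceeded 2 times the mean of replicates 1 and 2, while no other library had more than 7 such genes. All 8 hepatocyte markers were detected, with summed FPKM of 1509 to 2340 in siPAIP1 and 2663 to 2831 in Ctrl. Of the 8, ALB, APOA1, TTR and SERPINA1 fell (4 of 8, where 6.2% of all tested genes were lower), and leaving out 1 library raised their adjusted p to as much as 0.154, 0.0952, 0.130 and 0.141. Markers of other cells were low, with summed FPKM of 1.52 to 1.77 in siPAIP1 and 1.63 to 2.10 in Ctrl for the 3 of 5 T-cell genes in the table, and 2.02 to 2.67 in siPAIP1 and 2.06 to 3.14 in Ctrl for 3 of 4 B-cell genes. The sums were 0.17 to 0.29 in siPAIP1 and 0.23 to 0.31 in Ctrl for 4 of 5 endothelial genes, and 0.08 to 0.18 in siPAIP1 and 0.06 to 0.10 in Ctrl for 4 of 6 fibroblast genes. The 2 T-cell genes tested differed in sign: CD8A had a log2 fold change of 0.64 (adjusted p = 0.045, but 0.0607 to 0.163 without any 1 library other than siPAIP1 replicate 3) and CD3D one of -0.68 (adjusted p = 0.124). The part of any other cell type in the results was not tested. The 6 myeloid genes summed to 182.8 to 269.8 in siPAIP1 and 260.5 to 287.5 in Ctrl, carried by LYZ, while the leukocyte gene PTPRC had 1 count in Ctrl replicate 1 and 0 in the other 5 libraries. In such bulk RNA, fewer cells with a transcript and less of it per cell cannot be told apart.

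Sequence of the promoter is shown first for LTB, the member with the largest change. It is then shown for the 3 other called members with a match, before their RefSeq start site, to the consensus site of NF-κB. Many of these receptors activate that factor. RefSeq promoters (GRCh38.p14), from 250 bases before to 50 after a start site, were matched by symbol for 29 of the 40 genes. The 10-base NF-κB consensus was searched on both strands. It was found in 8 of these 29 genes (27.6%), and in 1937 of all 27305 genes with a promoter in the same windows (7.09%). These shares were not matched for gene type or for the number of start sites per gene. LTA and TNFSF13 had a match at some of their start sites only. The 250 bases before the LTB start site lie at chr6:31582426-31582675 on the minus strand, and the capitals mark the match, which begins 86 bases before the start site.
LTB: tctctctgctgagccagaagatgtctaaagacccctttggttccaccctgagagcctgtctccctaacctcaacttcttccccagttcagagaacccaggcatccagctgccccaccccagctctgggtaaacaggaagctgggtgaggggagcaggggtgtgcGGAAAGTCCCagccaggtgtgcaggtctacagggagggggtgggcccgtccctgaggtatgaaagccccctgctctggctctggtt
For the others the match is given with 20 bases on each side. It lies at chr14:102777396-102777445 (plus strand, 33 bases before the start) for TRAF3, at chr1:2556267-2556316 (plus strand, 84 bases before) for TNFRSF14 and at chr19:6670322-6670371 (minus strand, 191 bases before) for TNFSF14.
TRAF3: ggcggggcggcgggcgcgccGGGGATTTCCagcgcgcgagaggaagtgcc
TNFRSF14: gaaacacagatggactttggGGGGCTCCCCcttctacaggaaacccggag
TNFSF14: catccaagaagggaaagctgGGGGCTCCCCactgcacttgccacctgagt
Of the genes described below as changed, 8 had a promoter in the table and 5 of them a match (the fifth, TNFRSF25, just after its start site). Of the tested genes that did not pass, 1 of 13 had one (TNFSF13), and the remaining matches were in LTA and TNFRSF9, which were not tested. The 5 changed genes with a match included 4 that were higher and 1 that was lower in siPAIP1, and a match of letters is not a site shown to be bound. Start sites here are those of RefSeq. By the GENCODE spans given below, the matches of LTB, TNFRSF14 and TNFSF14 lie inside the gene, and that of TRAF3 before it. No promoter was matched for the changed genes TNFRSF10C, TNFRSF10D and TNFSF12-TNFSF13. The split of matches by call was not tested.

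The family was mostly a receptor family in these cells. Summed over the class, receptors reached an FPKM of 252.6, 258.0 and 231.4 in siPAIP1 libraries, against 226.3, 224.2 and 242.8 in Ctrl libraries. These groups overlap (exact permutation p = 0.2, two-sided, where 3 against 3 libraries allow no less than 0.1). Ligands summed to 18.6, 18.5 and 15.8 FPKM in siPAIP1, against 19.8, 19.8 and 20.8 in Ctrl. All siPAIP1 libraries lay lower (exact permutation p = 0.1), the lowest being replicate 3, the library that stood apart. Most of this sum came from a single locus with shared exons. TNFSF12 made up 37.3% in siPAIP1 and 35.4% in Ctrl, and TNFSF12-TNFSF13 30.6% in siPAIP1 and 32.8% in Ctrl. The TRAF genes summed to 47.1, 44.2 and 46.7 FPKM in siPAIP1, against 39.3, 39.6 and 43.6 in Ctrl, with siPAIP1 above Ctrl in each library (exact permutation p = 0.1).

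The highest member was TNFRSF12A, the receptor for TWEAK, with 73.3, 74.5 and 65.7 FPKM in siPAIP1 libraries, against 57.6, 48.9 and 65.1 in Ctrl libraries. This level exceeded 95.4% of protein-coding genes in siPAIP1 and 94.2% in Ctrl. TNFRSF10B, a death receptor for TRAIL, had 35.5, 38.6 and 38.6 FPKM in siPAIP1, against 35.5, 38.9 and 37.4 in Ctrl. TNFRSF19, an orphan-like receptor without a death domain known from embryonic and stem-cell tissues, had 34.6, 33.9 and 25.7 FPKM in siPAIP1, against 40.3, 39.1 and 40.8 in Ctrl. LTBR, the receptor for membrane lymphotoxin, had 31.0, 29.3 and 28.9 FPKM in siPAIP1, against 23.3, 26.1 and 24.8 in Ctrl. TRAF4, the TRAF least tied to TNF receptors, had 29.9, 28.4 and 26.3 FPKM in siPAIP1, against 26.6, 26.8 and 30.3 in Ctrl. So TNFRSF12A and LTBR were higher and TNFRSF19 lower in every siPAIP1 library, while TNFRSF10B and TRAF4 overlapped.

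The lowest 11 members, 4 ligands and 7 receptors, were too sparse for the filter on low counts and were left out of the filtered test. TNF itself, the founding cytokine, had 8, 4 and 4 counts in siPAIP1 libraries, against 3, 2 and 6 in Ctrl. Its neighbour LTA, the soluble lymphotoxin, had 4, 2 and 2 counts in siPAIP1, against 4, 3 and 8 in Ctrl. TNFSF13B, a B-cell survival factor, had 5, 0 and 3 counts in siPAIP1, against 2, 1 and 2 in Ctrl. TNFRSF9, a costimulatory receptor of T cells, was the highest of the untested genes, with 9, 13 and 19 counts in siPAIP1, against 6, 9 and 7 in Ctrl. The receptors TNFRSF4, TNFRSF6B and TNFRSF8 had 0 to 6 counts per library. TNFSF8, TNFRSF11B, TNFRSF13B and TNFRSF18 had at most 1. A count of 0 leaves room for up to 3 counts in a library. None of the 11 passed when all 40 genes were tested with no filter on low counts. TNFRSF6B, a soluble decoy, shares all of its annotated exon bases with the readthrough gene RTEL1-TNFRSF6B, so its count may miss fragments that could not be assigned.

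**Figure D1:**
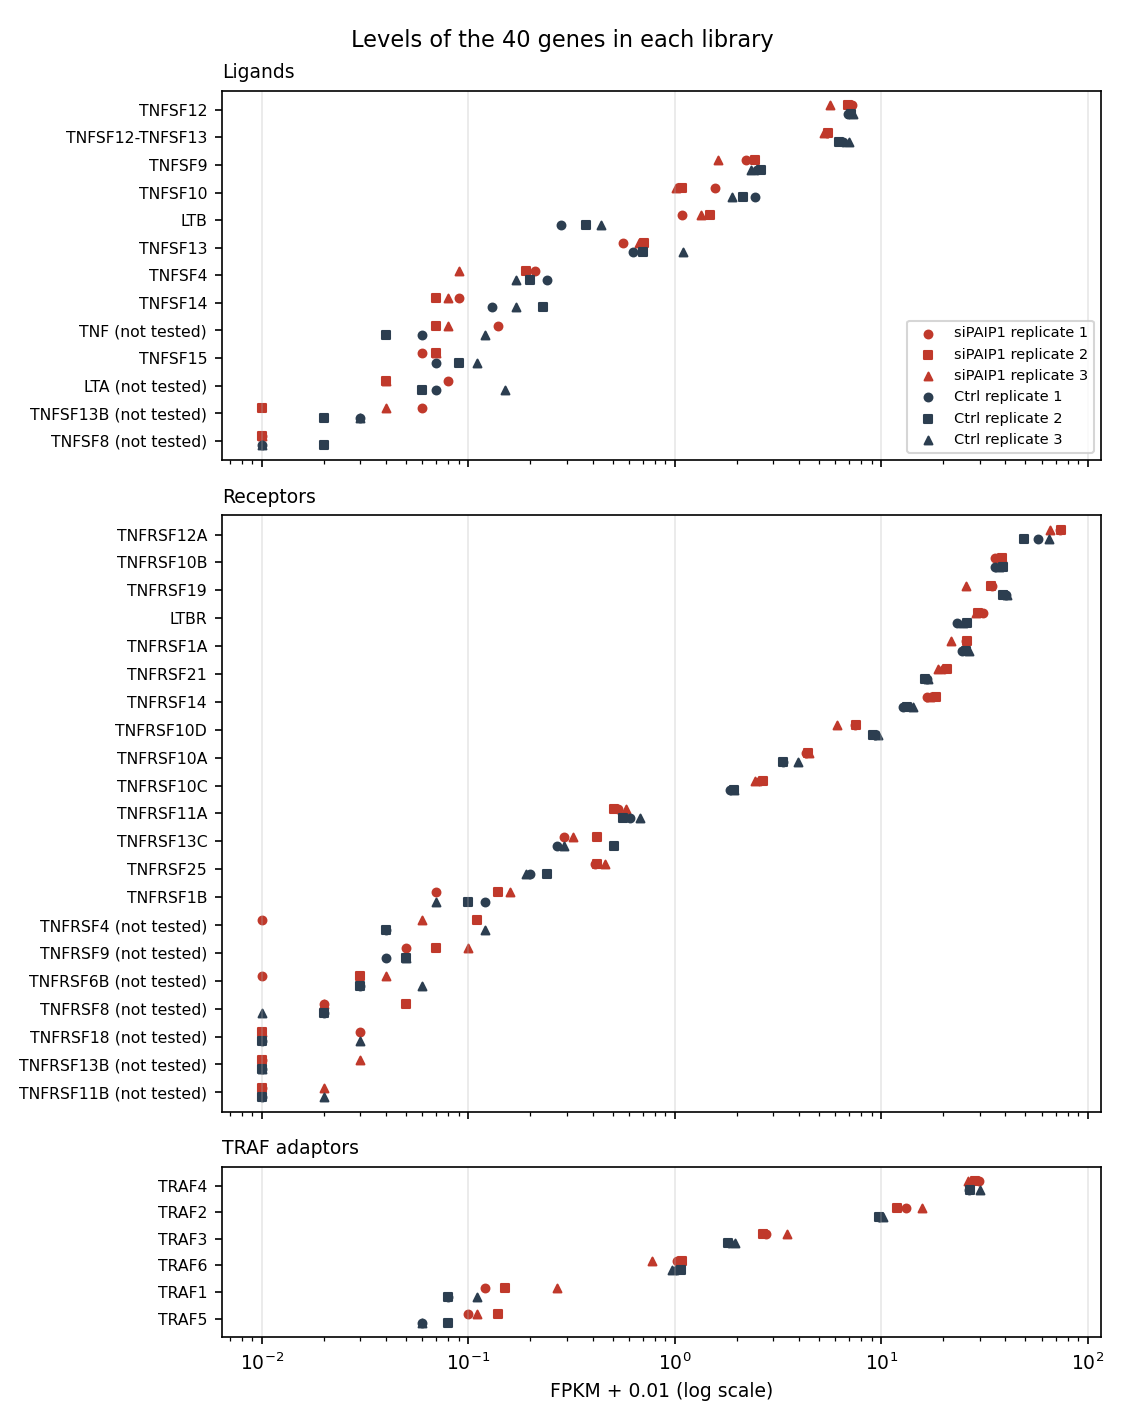
FPKM + 0.01 (log scale) of each of the 40 genes in each library, siPAIP1 in red above Ctrl in dark blue, with a symbol for each replicate and genes ordered by level within their class. Receptors span from at most 0.01 FPKM for TNFRSF11B to 74.5 for TNFRSF12A, while no ligand exceeds 7.33.

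Of the 29 members tested, 6 rose and 5 fell in siPAIP1 at an adjusted p under 0.05 in edgeR's quasi-likelihood test, which adjusts over all 15528 genes tested. That is 37.9% of those tested, where 11.9% of all tested genes passed (5.68% higher and 6.2% lower). Because the family was chosen with earlier results of these data known, these shares were not compared by a test. A further 6 members had an unadjusted p under 0.05 only. The change reached 2-fold for 3 of the 11 (LTB, TNFRSF25 and TNFSF14), a size reached with the same adjusted p by 2.22% of all tested genes (1.11% higher and 1.1% lower). In CPM, 20 of the 29 did not overlap between the groups (69.0%), 12 with siPAIP1 above and 8 below, where 36.6% of all tested genes did not overlap (19.0% above and 17.6% below). The median log2 fold change over the 29 was -0.01, and 0.03 over all tested genes. By class the median was -0.35 for 9 ligands, 0.24 for 14 receptors and 0.55 for 6 TRAF genes. The 29 are only those with enough counts. Most calls were lost when any library other than siPAIP1 replicate 3 was left out, with fewer samples in each fit. The number called was 5 and 2 without siPAIP1 replicate 1 or 2, and 0, 2 and 1 without Ctrl replicate 1, 2 or 3. In the fit with 0 calls, 12 of 30 tested members had an unadjusted p under 0.05, and no other tool was run without that library. Over all genes, those fits called 7.62%, 4.05%, 2.98%, 4.30% and 2.89%. Without siPAIP1 replicate 3 it was 13 of 29, among 24.2% of all genes, and 10 of the 13 were among the 11. The direction of all 11 held in every one of these fits. Since their groups did not overlap in CPM, leaving out a library left little room for another outcome.

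**Figure D2:**
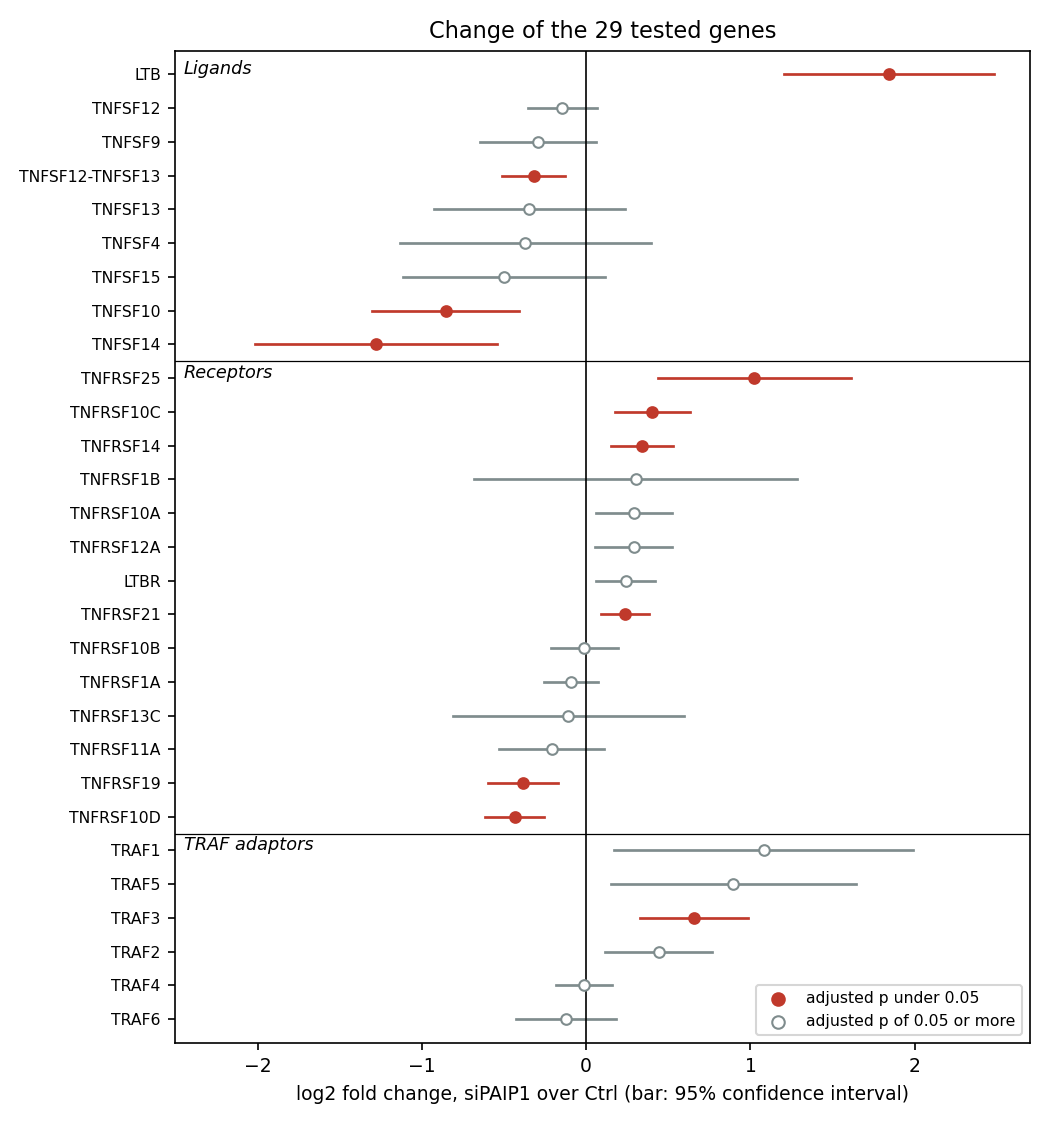
Log2 fold change, siPAIP1 over Ctrl, with its 95% confidence interval, for the 29 tested genes in 3 classes; filled red points have an adjusted p under 0.05. LTB is highest at 1.84 and TNFSF14 lowest at -1.28, and among the ligands LTB alone lies above 0.

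Among the ligands LTB rose and TNFSF10, TNFSF14 and TNFSF12-TNFSF13 fell, while 5 others did not pass. LTB, which anchors lymphotoxin to the membrane and signals through LTBR, lies at chr6:31580525-31582522. It had 35, 49 and 42 counts in siPAIP1 libraries, against 9, 12 and 13 in Ctrl libraries. In CPM this was 1.27 ± 0.218 in siPAIP1 and 0.353 ± 0.0790 in Ctrl (SD, n = 3 each), a log2 fold change of 1.84 (SE 0.27, adjusted p = 0.0077). The lowest siPAIP1 library was thus above the highest Ctrl library, and on the log2 scale replicates 1 and 2 averaged 1.78 above Ctrl and replicate 3 1.98. LTB made up 7.34% of the summed ligand FPKM in siPAIP1, against 1.76% in Ctrl. Its call was lost only without Ctrl replicate 1 (adjusted p = 0.0503) among the fits that leave out a library.

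TNFSF10 (chr3:172505508-172523475) encodes TRAIL, which triggers death through TNFRSF10A and TNFRSF10B. Its CPM was 3.24, 2.23 and 2.29 in siPAIP1 libraries, against 5.33, 4.67 and 4.04 in Ctrl libraries. The groups did not overlap, although siPAIP1 replicate 1 lay nearer to Ctrl than the others (log2 fold change -0.86, SE 0.19, adjusted p = 0.031). TNFSF14 (chr19:6661253-6670588), known as LIGHT, binds TNFRSF14 and LTBR. It had 14, 10 and 12 counts in siPAIP1, against 22, 39 and 25 in Ctrl. The fall was -1.28 on the log2 scale (SE 0.32, adjusted p = 0.042), with Ctrl replicate 2 the highest. TNFSF12-TNFSF13 (chr17:7549099-7561601) is a readthrough of neighbours that encode TWEAK and APRIL. Its CPM was 10.5, 10.5 and 11.1 in siPAIP1, against 13.3, 12.8 and 13.98 in Ctrl (-0.32, SE 0.082, adjusted p = 0.047). It shares 30.5% of its exon bases with TNFSF12 and 69.5% with TNFSF13, so no exon base is its own. The counting could split fragments among these genes, and a change of the readthrough cannot be told apart from one of its neighbours. Without siPAIP1 replicate 1, TNFSF14 (adjusted p = 0.0829) and TNFSF12-TNFSF13 (0.113) lost the call; without siPAIP1 replicate 2, so did TNFSF10 (0.1002), TNFSF14 (0.136) and TNFSF12-TNFSF13 (0.141). Without Ctrl replicate 1, 2 or 3, TNFSF10 lay at 0.0751 to 0.126, TNFSF14 at 0.0803 to 0.129 and TNFSF12-TNFSF13 at 0.0897 to 0.161.

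The other tested ligands did not pass. TNFSF12, the ligand TWEAK and the ligand gene with the highest FPKM, averaged 11.1 ± 0.877 CPM in siPAIP1 and 12.3 ± 0.284 CPM in Ctrl (log2 fold change -0.14, SE 0.091, adjusted p = 0.325). TNFSF9, a costimulatory ligand of T cells, averaged 3.76 ± 0.585 CPM in siPAIP1 and 4.61 ± 0.327 CPM in Ctrl (-0.29, adjusted p = 0.248). TNFSF13, the ligand APRIL, had -0.35 (SE 0.25, adjusted p = 0.390) and shares 55.5% of its exon bases with the readthrough. TNFSF15, a ligand of TNFRSF25, had -0.50 (SE 0.26, adjusted p = 0.254), with 15, 18 and 17 counts in siPAIP1, against 19, 24 and 26 in Ctrl. TNFSF4, a costimulatory ligand of T cells, had -0.37 (SE 0.33, adjusted p = 0.486), with a low value of 11 counts in siPAIP1 replicate 3. All 5 of these estimates lay below 0, and each confidence interval included 0.

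**Figure D3:**
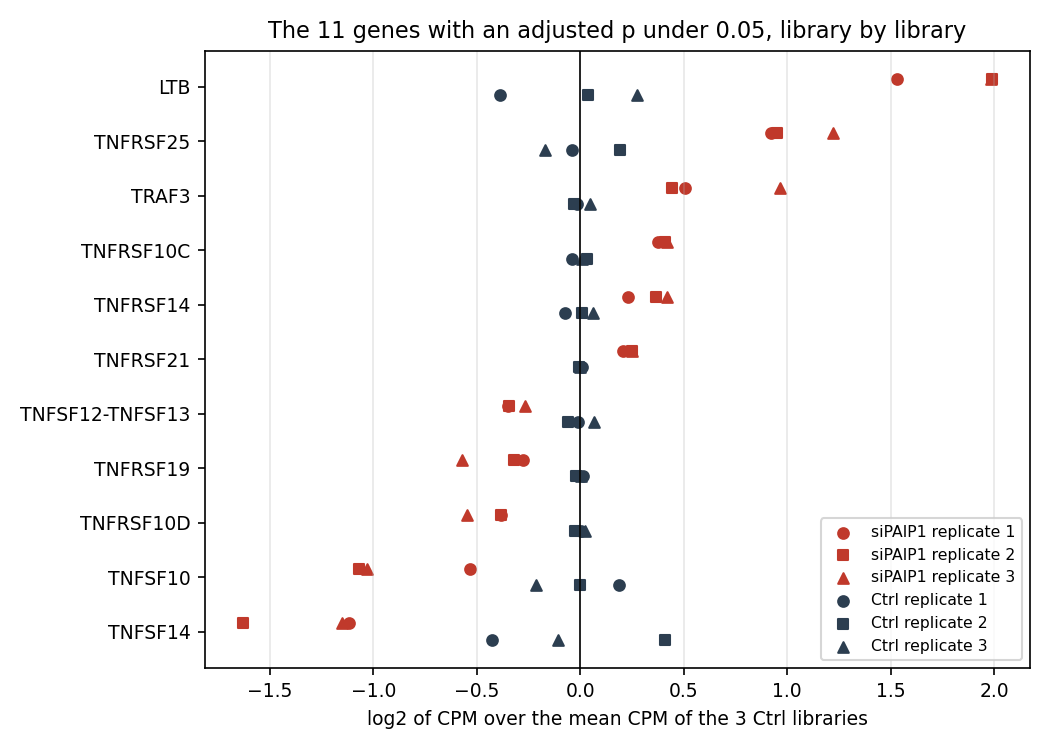
Each library's CPM, on the log2 scale, relative to the Ctrl mean for the 11 genes with an adjusted p under 0.05, siPAIP1 in red above Ctrl in dark blue. In each gene the 3 siPAIP1 libraries lie on one side of the 3 Ctrl libraries, and siPAIP1 replicate 3 is the farthest from the Ctrl mean in 7 of the 11.

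TRAIL binds a pair of death receptors, TNFRSF10A and TNFRSF10B, and the decoys TNFRSF10C and TNFRSF10D, all encoded within 205.0 kb of chromosome 8. The decoys moved in opposite directions. TNFRSF10C (chr8:23102921-23117445), a decoy held by a lipid anchor, had 6.79, 6.95 and 7.0 CPM in siPAIP1 libraries, against 5.09, 5.34 and 5.25 in Ctrl libraries. It rose by 0.40 on the log2 scale (SE 0.097, adjusted p = 0.039). TNFRSF10D (chr8:23135588-23164027), whose death domain is cut short, had 28.2, 28.2 and 25.2 CPM in siPAIP1, against 37.0, 36.2 and 37.4 in Ctrl (-0.44, SE 0.077, adjusted p = 0.014). As a share of the FPKM of TNFRSF10D, TNFRSF10C stood at 34.4%, 35.2% and 39.7% in siPAIP1 and 19.7%, 21.1% and 20.1% in Ctrl, a ratio whose separation follows from the opposite changes of the 2 genes. Both decoys together reached 25.3%, 23.8% and 19.9% of both death receptors in siPAIP1, against 28.8%, 26.1% and 28.0% in Ctrl. This share was lower in every siPAIP1 library. Both ratios were formed after the values were seen and are given with no test.

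The death receptors of TRAIL did not pass. TNFRSF10A had 12.5, 12.6 and 14.1 CPM in siPAIP1, against 10.1, 10.3 and 11.8 in Ctrl (log2 fold change 0.29, SE 0.10, adjusted p = 0.106). TNFRSF10B, far more abundant in FPKM, averaged 170.7 ± 15.01 CPM in siPAIP1 and 172.0 ± 8.72 CPM in Ctrl (-0.01, 95% confidence interval -0.21 to 0.19, adjusted p = 0.948). The 4 genes are similar in sequence. The authors used uniquely mapped read pairs, so fragments that fit several of these genes equally well would be left out. How many such fragments there were is not given in the sources used here. TNFRSF10C lost its call without siPAIP1 replicate 1 (adjusted p = 0.0871) or 2 (0.118), or without Ctrl replicate 1, 2 or 3 (0.0970 to 0.147). TNFRSF10D lost it without siPAIP1 replicate 2 (0.0527) or Ctrl replicate 1 or 3 (0.0701 for each).

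**Figure D4:**
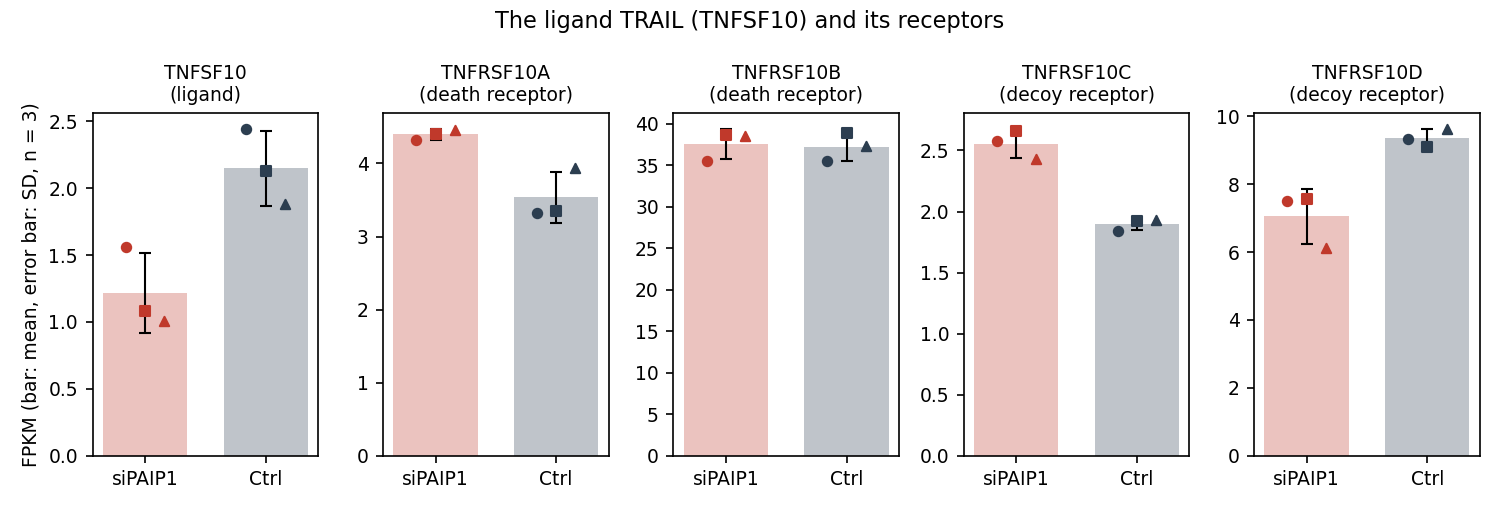
FPKM of TRAIL (TNFSF10) and its receptors, siPAIP1 left of Ctrl, with bars for the mean, error bars for the SD (n = 3) and a point for each library; each panel has its own axis from 0. TNFSF10 and TNFRSF10D are lower and TNFRSF10A and TNFRSF10C higher in all siPAIP1 libraries, while TNFRSF10B overlaps at 35.5 to 38.6 in siPAIP1 and 35.5 to 38.9 in Ctrl.

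Other receptors with a death domain were TNFRSF1A, TNFRSF21 and TNFRSF25. TNFRSF25 (chr1:6460786-6466175), the receptor of TNFSF15 known mostly from T cells, had 24, 25 and 26 counts in siPAIP1, against 12, 14 and 10 in Ctrl. It rose by 1.02 on the log2 scale (SE 0.25, adjusted p = 0.041), at an FPKM of only 0.420 ± 0.0265 in siPAIP1 and 0.200 ± 0.0265 in Ctrl, and 8.98% of its exon bases lie opposite exons of ESPN. TNFRSF21 (chr6:47231532-47309905), a death receptor studied in neurons, had 76.6, 79.1 and 79.2 CPM in siPAIP1, against 66.8, 66.2 and 66.5 in Ctrl. Its replicates were close to each other, and the rise was 0.24 (SE 0.062, adjusted p = 0.0496). TNFRSF1A, the main receptor for TNF in most cells, averaged 79.8 ± 3.86 CPM in siPAIP1 and 85.1 ± 3.0 CPM in Ctrl (-0.09, 95% confidence interval -0.26 to 0.07, adjusted p = 0.415). The call of TNFRSF25 was lost without any of the 6 libraries (0.0656 to 0.163), and that of TNFRSF21 without any but siPAIP1 replicate 3 (0.113 to 0.189).

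Receptors without a death domain included TNFRSF14, which rose, and TNFRSF19, which fell. TNFRSF14 (chr1:2555639-2565382), the herpesvirus entry mediator that binds TNFSF14, had 34.0, 37.3 and 38.7 CPM in siPAIP1, against 27.6, 29.1 and 30.2 in Ctrl (log2 fold change 0.34, SE 0.082, adjusted p = 0.039). Its antisense neighbour TNFRSF14-AS1 overlaps 13.3% of its exon bases, and whether the counting used strand is not given. TNFRSF19 (chr13:23570370-23676104) had 178, 173 and 145 CPM in siPAIP1, against 218, 213 and 216 in Ctrl. It fell by 0.38 on the log2 scale (SE 0.091, adjusted p = 0.037), with -0.30 for the first pair of siPAIP1 replicates and -0.57 for replicate 3. TNFRSF14 lost the call without siPAIP1 replicate 1 (0.0508) or 2 (0.119) or Ctrl replicate 1, 2 or 3 (0.111 to 0.168), and TNFRSF19 without siPAIP1 replicate 2 (0.0914) or Ctrl replicate 1, 2 or 3 (0.0912 to 0.136).

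LTBR and TNFRSF12A, both well expressed, fell short of the threshold. LTBR averaged 78.9 ± 3.51 CPM in siPAIP1 and 66.8 ± 4.14 CPM in Ctrl (log2 fold change 0.24, SE 0.076, adjusted p = 0.086). TNFRSF12A averaged 108.3 ± 1.42 CPM in siPAIP1 and 88.6 ± 11.4 CPM in Ctrl (0.29, SE 0.10, adjusted p = 0.107). In both, all siPAIP1 libraries lay above all Ctrl libraries, and both passed when siPAIP1 replicate 3 was left out. TNFRSF11A, the receptor of the osteoclast factor RANKL, had -0.21 (SE 0.14, adjusted p = 0.343). TNFRSF13C, a B-cell survival receptor, had 40, 59 and 43 counts in siPAIP1, against 39, 74 and 37 in Ctrl (-0.11, adjusted p = 0.837). TNFRSF1B, the inducible TNF receptor, had 8, 18 and 19 counts in siPAIP1, against 15, 13 and 8 in Ctrl (0.30, SE 0.42, adjusted p = 0.666).

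All 6 TRAF genes were tested, and TRAF3 alone passed. TRAF3 (chr14:102777449-102911500), a brake on the noncanonical NF-κB route that LTBR engages, had 22.9, 21.9 and 31.4 CPM in siPAIP1 libraries, against 15.9, 15.8 and 16.6 in Ctrl libraries. The log2 fold change was 0.66 (SE 0.14, adjusted p = 0.027), with 0.47 for replicates 1 and 2 together and 0.97 for replicate 3. TRAF2, its partner at many receptors, had 31.9, 28.3 and 41.7 CPM in siPAIP1, against 24.7, 24.9 and 25.4 in Ctrl (0.44, SE 0.14, adjusted p = 0.084). In both genes the library that stood apart was highest, and TRAF2 passed without it. TRAF1, itself a target of NF-κB, had the largest estimate of the class, with 27, 34 and 59 counts in siPAIP1, against 17, 17 and 22 in Ctrl. Its log2 fold change of 1.08 (SE 0.39, adjusted p = 0.120) split into 0.60 for replicates 1 and 2 together and 1.75 for replicate 3. TRAF5, close in function to TRAF2, had 14, 20 and 14 counts in siPAIP1, against 7, 11 and 7 in Ctrl (0.90, SE 0.32, adjusted p = 0.117). TRAF4 had -0.01 (95% confidence interval -0.18 to 0.16). TRAF6, which serves interleukin-1 and Toll-like receptors, had -0.12 (95% confidence interval -0.43 to 0.18). TRAF3 lost its call without Ctrl replicate 1, 2 or 3 (adjusted p = 0.104 to 0.117).

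Genes around the family were taken from lists by function, drawn up with earlier results of these data known. Of 15 adaptor and death-signaling genes tested, 3 rose and 1 fell (26.7%, where 11.9% of all tested genes passed). TRADD, the adaptor of TNFRSF1A and TNFRSF25, rose by 0.68 on the log2 scale (SE 0.090, adjusted p = 0.0054), CASP8, the initiator caspase, by 0.56 (SE 0.12, adjusted p = 0.022) and FADD, which joins death receptors to it, by 0.35 (SE 0.084, adjusted p = 0.038). In FPKM, TRADD averaged 5.02 in siPAIP1 and 3.07 in Ctrl, CASP8 8.70 in siPAIP1 and 5.80 in Ctrl, and FADD 15.2 in siPAIP1 and 11.7 in Ctrl. TRAF3IP2, an adaptor of interleukin-17 receptors, fell by 0.42 on the log2 scale (SE 0.10, adjusted p = 0.045). The caspase-8 inhibitor CFLAR (0.19, adjusted p = 0.472) and the kinase RIPK1 (-0.01, adjusted p = 0.950) did not pass, and both are named after their values were seen. Without one library or another, TRADD kept its call in all 6 fits (adjusted p up to 0.0395), while CASP8, FADD and TRAF3IP2 reached 0.104, 0.161 and 0.161.

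Of 24 genes of the NF-κB pathway, all tested, 1 rose and 2 fell (12.5%, close to the 11.9% of all tested genes that passed). NFKBIB, an inhibitor of NF-κB, rose by 0.40 on the log2 scale (SE 0.082, adjusted p = 0.022). TAB3, a partner of the kinase TAK1, fell by 0.45 (SE 0.075, adjusted p = 0.012) and RBCK1, of the linear ubiquitin ligase, by 0.28 (SE 0.069, adjusted p = 0.041). The median log2 fold change of the list was 0.04. Of 18 NF-κB target genes listed, 11 were tested, and of these 1 rose and 3 fell (36.4%, against the same 11.9%). The other 7 did not pass, and the median log2 fold change was -0.20. In CPM, 36.4% of the 11 did not overlap between the groups, where 36.6% of all tested genes did not. CCL20, a chemokine, fell by 0.88 on the log2 scale (SE 0.11, adjusted p = 0.0047), IRF1, a transcription factor, by 0.75 (SE 0.085, adjusted p = 0.0034) and ICAM1, an adhesion molecule, by 0.36 (SE 0.075, adjusted p = 0.025). CSF1, the macrophage growth factor, rose by 0.49 (SE 0.12, adjusted p = 0.042). Leaving out 1 library raised the adjusted p to at most 0.0364 for CCL20 and 0.0310 for IRF1, and to as much as 0.108 for NFKBIB and ICAM1, 0.0619 for TAB3, 0.158 for RBCK1 and 0.168 for CSF1.

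Of 6 genes that cut ligands from the membrane or control that cutting, 2 fell and none rose (33.3%, where 11.9% of all tested genes passed and 6.2% were lower). ADAM10, a membrane protease, fell by 0.25 on the log2 scale (SE 0.065, adjusted p = 0.046) and TIMP3, an inhibitor of such proteases, by 0.61 (SE 0.10, adjusted p = 0.011), with 0.176 and 0.0621 as their highest adjusted p without 1 library. Of the family genes whose symbols the rule does not match, 6 were tested (16.7% passed, where 11.9% of all tested genes did) and EDA, the ligand ectodysplasin, rose by 0.37 on the log2 scale (SE 0.089, adjusted p = 0.039, up to 0.145 without 1 library). The receptors FAS (-0.23, adjusted p = 0.226) and CD40 (-0.17, adjusted p = 0.265), named after their values were seen, did not pass.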

How the data were processed

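The authors trimmed reads with FASTX-Toolkit 0.0.13, aligned them to GRCh38 with TopHat2 (up to 4 mismatches) and used uniquely mapped read pairs. The deposited counts are raw fragments per gene. The authors' FPKM values rest on the same alignments and were deposited with 2 decimals. Which tool counted, whether it used strand and which annotation it read is not given in the sources used here. The submitters' processing notes also name bcl2fastq and edgeR.

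Counts of 30987 genes were scaled by TMM and filtered by filterByExpr in edgeR 4.0.16 (R 4.3.3), which kept 15528. siPAIP1 and Ctrl were compared with glmQLFit and glmQLFTest, with group alone in the model and p-values adjusted by Benjamini-Hochberg over the kept genes. SE came from the log2 fold change and its F statistic. CPM uses the same scaling. FPKM serves for levels between genes. Single values were compared by two-sided exact permutation of 3 against 3 libraries. Alternatives used limma 3.58.1, DESeq2 1.42.0 and other settings. Python 3.11.15, pandas 2.3.3 and matplotlib 3.10.9 made summaries and plots. Gene coordinates are from GENCODE release 44 (GRCh38) and promoters from RefSeq (GRCh38.p14). The members and lists were chosen with earlier results of these data known. Values per library are given for members with an adjusted p under 0.05, the 5 highest in FPKM and the largest change per class, and in part for others. From each list up to 4 genes with the lowest adjusted p under 0.05 are named.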

Additional observations from a re-analysis of the deposited data

How the results depend on the processing

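Most calls in the family lie close to the threshold. At an adjusted p under 0.01 only 1 member passed, and 3 passed with a fold change of at least 2 besides an adjusted p under 0.05. The number called, 11 in the quasi-likelihood fit, was 7 with upper-quartile factors, 7 with no filter on low counts and 7 by DESeq2. With no filter and by DESeq2, 6 of the 7 were among the 11, and TRAF2 was gained. All 3 settings lost TNFRSF10C, TNFRSF21 and TNFSF12-TNFSF13. Upper-quartile factors also lost TNFRSF19, no filter TNFRSF14 and TNFRSF25, and DESeq2 TNFRSF25 and TNFSF14. The number was 6 by limma-trend on log2(FPKM + 1), 6 on log2(FPKM + 0.1) and 1 on log2(FPKM + 1) with no filter. Leaving out 1 library gave 0 to 13, with fewer samples in each fit. RLE factors gave 10, edgeR's exact test 8 and a mean CPM of at least 1 gave 8, where LTB, TNFRSF25 and TNFSF14 were not tested. Over all genes, where 1845 passed, limma-trend without a filter called 367, and leaving out 1 library 463 to 3809. Of all calls, 47.8% were higher in siPAIP1, against 56.9% on log2(FPKM + 0.1) and 38.9% without Ctrl replicate 2.

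Same-numbered replicates were not paired by the labels, and their deviations from the group means correlated at 0.35, -0.37 and -0.17. Pairs of replicates with different numbers correlated at -0.405 to 0.45. With the replicate number as a block, 3 members passed (LTB, TNFSF10 and TRAF3) and 825 of all genes. In that block fit 2 adaptor genes, 1 NF-κB pathway gene, 1 ligand processing gene and 0 other family genes passed.

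No called member changed direction in any alternative, which had little room to differ because the groups of each did not overlap in CPM. TRAF4 reversed to 0.015 on log2(FPKM + 1), with and without a filter, and to 0.015 on log2(FPKM + 0.1), and TNFRSF10B to 0.013 in the same 3 fits. Leaving out 1 library, TRAF4 ranged from -0.049 to 0.032, TNFRSF10B from -0.083 to 0.042 and TNFRSF13C from -0.28 to 0.25. The 4 adaptor calls were 2 with upper-quartile factors and with either limma-trend fit of the filtered genes, 1 with limma-trend on all genes, and 1 to 5 without 1 library. The 3 NF-κB pathway calls were 1 with limma-trend on all genes and 0 to 6 without 1 library. The 4 target calls were 1 with limma-trend on all genes and 2 to 5 without 1 library. The 2 processing calls were 1 with upper-quartile factors, DESeq2, edgeR's exact test and either limma-trend fit, 0 with limma-trend on all genes, and 0 to 4 without 1 library. The call of EDA, the other family gene, was lost (0 calls) with no filter, with DESeq2 and in each limma-trend fit, and the number was 0 to 1 without 1 library. The cause of these changes was not tested.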

Other observations

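Some family genes lie next to each other in the genome. LTA, TNF and LTB lie within 10.5 kb of chromosome 6, and while LTB had 35, 49 and 42 counts in siPAIP1 and 9, 12 and 13 in Ctrl, the counts of TNF and LTA did not exceed 8 in any library. On chromosome 12, TNFRSF1A and LTBR lie within 62.8 kb, with log2 fold changes of -0.09 and 0.24, of which neither passed. On chromosome 19, TNFSF9 and TNFSF14 lie within 140.0 kb, with -0.29 and -1.28, of which TNFSF14 passed. The FPKM of TRAF3 as a share of that of TRAF2 was 20.9%, 22.5% and 22.0% in siPAIP1, against 18.8%, 18.4% and 19.1% in Ctrl, a ratio chosen after the values were seen and given with no test.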
